A study of Mus musculus with 16 samples.

Results

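The genes described here are those whose response to activated beta-catenin differed between lung and liver endothelial cells of adult mice. All 16 RNA-seq libraries of the series entered a single model. For each gene, the change in lung (GOF over control) minus the change in liver (GOF over control) was estimated on the log2 scale. Of 17536 genes tested, 86 passed at an adjusted p under 0.05 (edgeR's quasi-likelihood test, Benjamini-Hochberg over all genes), which is 0.49% of those tested. The 4 lung GOF libraries and the 4 liver GOF libraries came from mice of genotype Rosa-Bcat-GOF/+; VE-Cadherin-CreERT2, in which the endothelial VE-cadherin promoter drives a tamoxifen-inducible Cre that switches on the activated beta-catenin transgene. The 4 lung control and 4 liver control libraries came from Rosa-Bcat-GOF/+ mice without Cre, so both genotypes carried the activatable allele, and effects of Cre cannot be told apart from those of beta-catenin. The labels used here give neither an exact age nor an induction schedule. Libraries carry letters (B, D, E and F in lung, B, E, F and G in liver) that occur in both genotypes, and each GOF library was compared with the control of the same organ and letter.

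Beta-catenin is the transcriptional effector of canonical Wnt signalling. When it is not degraded it enters the nucleus and binds factors of the TCF/LEF family, which raises targets that include feedback inhibitors of the pathway itself. In the vessels of the brain this pathway is needed for the blood-brain barrier. Lung capillaries and liver sinusoids are leakier beds with other programmes: liver endothelium of the central vein is a source of Wnt ligands for neighbouring hepatocytes.

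Cells had been sorted by surface CD31, and the libraries held 22815467 to 37127150 counted reads. The endothelial genes Pecam1, Cdh5, Kdr, Tek and Tie1 averaged at least 701 CPM (reads scaled to a common library size by TMM) in every group. The labelled organs could be told apart: Car4 averaged 851 CPM in lung GOF and 834 CPM in lung control, against 0.366 and 0.767 CPM in liver GOF and liver control, and Gata4 averaged 0.578 and 1.32 CPM in lung GOF and lung control, against 514 and 569 CPM in liver GOF and liver control. Lyve1, which marks liver sinusoids, was higher in lung, at 1425 CPM in lung GOF and 1658 CPM in lung control, against 145 CPM in liver GOF and 245 CPM in liver control. In bulk libraries fewer cells of a type and less RNA per cell cannot be told apart, and transcripts of other cells were present in both organs.

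The difference between the organs was carried mostly by liver. Of the 86 genes, 27 had a response higher in lung (0.154% of the genes tested) and 59 a response higher in liver (0.336%). In the same model 256 genes passed for GOF over control in liver (1.46% of the genes tested), 156 higher and 100 lower. In lung 1 gene passed (0.0057%), the adhesion molecule gene Amigo2, at 108 ± 35.1 CPM in lung GOF and 226 ± 48.6 CPM in lung control (SD, n = 4 each; log2 fold change -1.09 ± 0.13, SE, edgeR adjusted p = 0.0174). Amigo2 also fell in liver (log2 fold change -0.697 ± 0.13, edgeR adjusted p = 0.014), and its organ difference of -0.39 ± 0.18 had an adjusted p of 0.454. The lung call was lost without lung pair B, without lung pair F and without the block, and DESeq2 called 198 genes in lung. Of the 86 genes, 70 also passed in liver and 0 passed in lung. An unadjusted p under 0.05 for the organ difference was found for 1877 genes, where the threshold alone gives 877.

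The number of genes depended on the pairing by letter and on single pairs. Without the letter as a block, 1 gene passed, Nckap5. Leaving out lung pair D or lung pair F gave 54 genes, and leaving out lung pair E gave 184. Of the 86 genes, 30 passed with each of the 8 pairs left out in turn, and 33 passed in at most 4 of those 8 fits. In 77 of the 86, the 4 lung pair ratios and the 4 liver pair ratios did not overlap (6.98% of all genes tested), which restates how these genes were selected.

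Sorted by the unadjusted p within each organ, 34 of the 86 genes were higher in liver GOF with no change past 0.05 in lung, 10 were lower in liver GOF only, 7 were higher in both organs and 1 was lower in both. A further 30 had opposite signs in the organs, 3 were higher in lung GOF only and 1 was lower in lung GOF only. With adjusted p within the organ, 53 were higher in liver, 17 lower in liver, and 16 fell in no class, so that 0 were opposite. The opposite signs given below therefore rest on unadjusted p in lung, and for some genes, such as Vwf and Fam107a, also in liver. In the 33 genes higher in liver only that had reads in all 4 groups, the log2 fold change in liver ran between 0.51 and 4.93 (median 1.07) and that in lung between -0.45 and 0.40 (median -0.04).

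**Figure D1:**
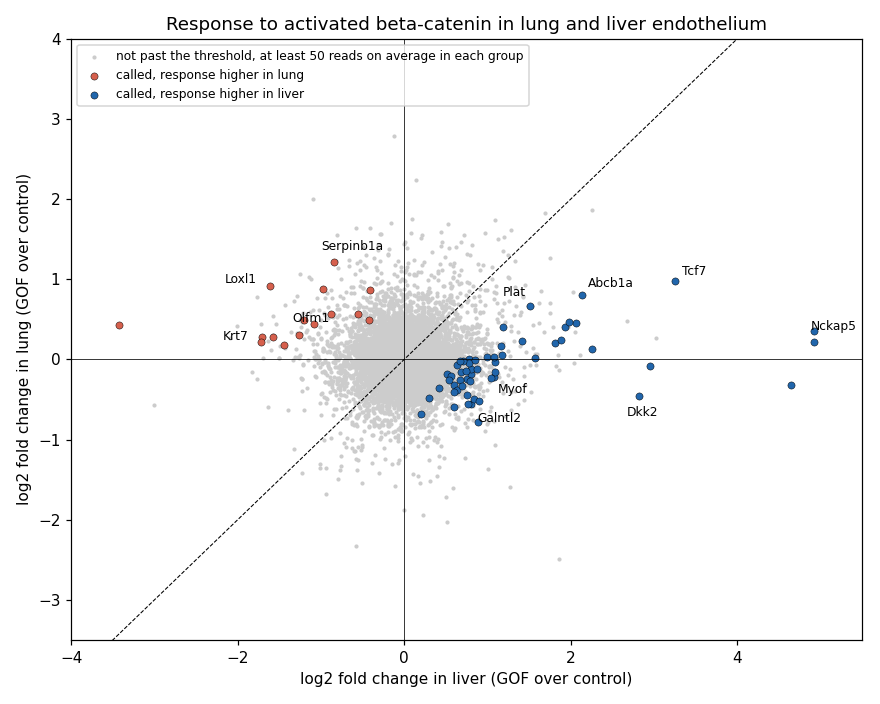
Log2 fold change of GOF over control in liver (x axis) and lung (y axis) from the joint paired model. Grey points are 11631 genes not past the threshold with at least 50 reads on average in each group, and coloured points are the 71 called genes with reads in all 4 groups. The dashed line marks equal change in both organs. The called genes spread along the liver axis, between -3.43 and 4.93, and lie between -0.78 and 1.21 on the lung axis.

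Across the 11697 genes with at least 50 reads on average in each group, the lung and liver fold changes had a Pearson correlation of 0.03, a description across genes, which are not independent replicates. The 156 genes that rose in liver had a median log2 fold change of 0.06 in lung, and 91 of them were positive there (58.3%, against 48.7% of all genes tested). The 100 genes that fell in liver had a median of -0.08 in lung, and 58 were negative there. Lung and liver values came from a single fit with shared filtering and spread, and the liver calls also moved with the lung libraries left out (239 without lung pair F, 322 without lung pair E). Of the 156 genes that rose in liver, 53 (34.0%) were called for the organ difference, and of the 100 that fell, 17 (17.0%), where 0.49% of all genes tested were. The liver libraries enter both tests, so a raised share is built in.

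Among the Wnt targets and feedback genes, Tcf7 and Dkk2 responded more strongly in liver. Tcf7 encodes TCF1, a DNA-binding partner of beta-catenin and itself a Wnt target. It had 45.9, 48.3, 36.9 and 54.2 CPM in lung GOF libraries, against 16.03, 30.5, 22.4 and 26.8 CPM in lung controls. It had 48.1, 18.6, 35.0 and 31.4 CPM in liver GOF libraries, against 3.99, 2.58, 2.29 and 5.04 CPM in liver controls. In both organs every GOF library lay above every control library of that organ, and the liver controls were the lowest group. Tcf7 rose in liver by a log2 fold change of 3.25 ± 0.24 (SE, edgeR adjusted p = 3.62e-05), while the lung change was 0.98 ± 0.21 and did not pass (adjusted p = 0.177). The organ difference was -2.27 ± 0.31 (edgeR adjusted p = 0.00747), and all 4 liver pair ratios exceeded all 4 lung pair ratios. The GOF levels of both organs overlapped, and the larger change in liver went with a lower control level.

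Dkk2, which encodes a secreted modulator of Wnt receptors, had 8.13, 6.27, 14.98 and 12.02 CPM in lung GOF libraries, against 14.05, 8.75, 22.9 and 11.5 CPM in lung controls. It had 91.96, 30.2, 109 and 94.8 CPM in liver GOF libraries, against 7.71, 3.87, 12.7 and 29.99 CPM in liver controls. In liver every GOF library was above every control, although GOF library E and control library G came close to each other, and in lung the groups overlapped. The log2 fold change was -0.45 ± 0.25 in lung and 2.83 ± 0.27 in liver, a difference of -3.28 ± 0.37 (edgeR adjusted p = 0.0022). Unlike Tcf7, Dkk2 was higher in liver GOF than in any other group.

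Axin2, the scaffold of the beta-catenin destruction complex and a widely used readout of the pathway, did not pass for the organ difference in the main edgeR fit. It had 31.0, 21.0, 19.4 and 28.0 CPM in lung GOF libraries, against 17.6, 17.8, 9.68 and 11.5 CPM in lung controls. It had 71.3, 23.4, 33.7 and 40.5 CPM in liver GOF libraries, against 13.3, 6.47, 10.6 and 9.04 CPM in liver controls. GOF lay above control without overlap in both organs. Its organ difference was -1.19 ± 0.28 (95% interval -1.79 to -0.59, edgeR adjusted p = 0.0913), with a log2 fold change of 2.03 ± 0.202 in liver (adjusted p = 0.000175) and 0.84 ± 0.197 in lung (adjusted p = 0.213). All liver pair ratios of Axin2 exceeded all lung pair ratios. The difference passed in 2 of 11 alternatives that kept all libraries, DESeq2 among them (adjusted p = 0.0163). It passed in 0 of the 8 fits with a pair left out. Of 25 genes tested in the list of Wnt targets and feedback genes, 0 were called with a response higher in lung. With a response higher in liver 2 were called, where 0.336% of all genes were. In liver 4 of the list rose, against 156 of all 17536 genes tested. DESeq2 called 4 of the 25 for the organ difference, and 8 had an unadjusted p under 0.05. The median organ difference of the list was -0.11, against -0.01 over all genes tested, and the medians of its fold changes were 0.12 in lung and 0.76 in liver. Of 25 genes tested in the list of beta-catenin and TCF/LEF machinery, 0 were called for the organ difference by edgeR and 0 by DESeq2, and 5 had an unadjusted p under 0.05 (Apc, Gsk3b, Tle3, Fzd4 and Tspan12). Over all 17536 genes tested, DESeq2 called 388 and 1877 had an unadjusted p under 0.05.

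The gene of beta-catenin itself did not pass for the organ difference. Ctnnb1 averaged 673 ± 71.7 CPM in lung GOF and 684 ± 51.8 CPM in lung control, and 746 ± 69.4 CPM in liver GOF and 805 ± 86.9 CPM in liver control (SD, n = 4 each). Its organ difference was 0.08 ± 0.12 (95% interval -0.19 to 0.35, edgeR adjusted p = 0.891). The sources used here do not say whether transgene reads were counted as Ctnnb1, and the labels therefore could not be checked by it. Lef1, another TCF/LEF factor, was near its detection limit, at 1.62 ± 1.52 CPM in lung GOF and 0.0751 ± 0.113 CPM in lung control, and 1.32 ± 1.31 CPM in liver GOF and 0.337 ± 0.373 CPM in liver control, with a difference of 2.19 ± 2.62 (adjusted p = 0.847).

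**Figure D2:**
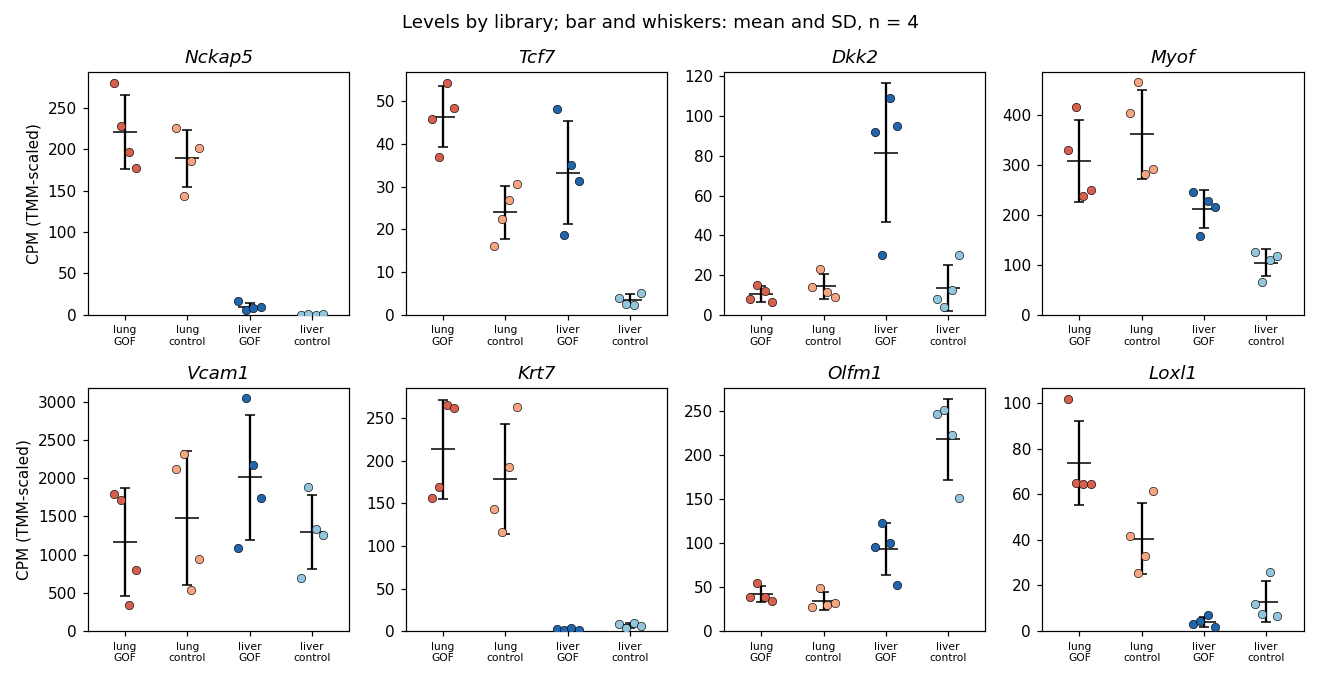
CPM (TMM-scaled, y axis from 0) of 8 genes in each library, grouped as lung GOF, lung control, liver GOF and liver control. Points are libraries, and the bar with whiskers is the mean and SD of 4. Nckap5, Tcf7, Dkk2 and Myof show the liver GOF libraries above the liver controls, and Olfm1 shows all 4 below.

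The 7 genes higher in both organs, all with a larger change in liver, included Tcf7, the efflux pump gene Abcb1a and Plat, which encodes tissue plasminogen activator. Abcb1a encodes P-glycoprotein, an exporter of the blood-brain barrier. It had 344, 224, 372 and 206 CPM in lung GOF libraries, against 156, 134, 225 and 136 CPM in lung controls. It had 194, 60.4, 113 and 136 CPM in liver GOF libraries, against 28.4, 23.2, 20.2 and 37.2 CPM in liver controls. In liver the GOF libraries lay clear of the controls, and in lung GOF libraries D and F were below the highest control, E. The log2 fold change was 0.805 ± 0.18 in lung and 2.13 ± 0.19 in liver, and the difference of -1.33 ± 0.25 passed narrowly (edgeR adjusted p = 0.0395) and was lost without liver pair B or F, or lung pair D, E or F. Reads of Abcb1a and its paralog Abcb1b may have been split in the authors' counting. In the list of CNS endothelial barrier genes Abcb1a was the 1 member called of 41 tested. Of all genes, 0.336% were called with a response higher in liver. The median organ difference over the list was -0.24, against -0.01 over all genes.

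Plat had 1076, 594, 1015 and 523 CPM in lung GOF libraries, against 673, 418, 615 and 314 CPM in lung controls. It had 217, 119, 228 and 208 CPM in liver GOF libraries, against 59.2, 44.5, 85.4 and 82.5 CPM in liver controls. The liver groups did not overlap and the lung groups did, and both lung genotypes were lower in libraries D and F. Plat had log2 fold changes of 0.66 ± 0.10 in lung and 1.51 ± 0.10 in liver, a difference of -0.85 ± 0.14 (edgeR adjusted p = 0.02, lost without lung pair D). The other genes higher in both organs were Olfml2a (0.47 in lung, 1.98 in liver), the phosphatase gene Dusp2 (0.46 in lung, 2.06 in liver), the receptor regulator Lrig1 (0.40 in lung, 1.18 in liver) and the laminin subunit gene Lama1. The call of Lrig1 was kept in 2 of the 8 fits with a pair left out (those without lung pair E or F), that of Dusp2 in 6 (lost without liver pair F or lung pair F) and that of Lama1 in 7 (lost without liver pair F). Lama1 had 61 reads over the 4 liver GOF libraries and 0 reads in liver control, at least 20.8-fold higher if 3 reads are taken as the limit of a group with none, and averaged 22.5 CPM in lung GOF and 14.1 CPM in lung control.

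Promoter windows were searched for the core letters bound by TCF/LEF factors, CTTTGA followed by T or A, on both strands. RefSeq windows of 300 bases on GRCm38.p6, from 250 before to 50 after a start, held the core in 8.65% of 32851 windows. For named genes, repeated windows and those on a single chromosome were left out, which was not done for all windows. Of the 35 named genes called for the organ difference, 22 then had windows. The core was held by 3 of their 33 windows (9.09%), near the share of all windows: 1 each of Abcb1a, Selp and Haao. The longer form CTTTGATC was found in 0.938% of all windows and, among the named genes, in 1 window, that of Haao. The windows of Abcb1a (chr5:8566841-8567140, plus strand) and Selp (chr1:164115014-164115313, plus strand), the endothelial members with a match, are printed 5′ to 3′ with the core in capitals. A match is a description of the letters and not a site of binding.
Abcb1a: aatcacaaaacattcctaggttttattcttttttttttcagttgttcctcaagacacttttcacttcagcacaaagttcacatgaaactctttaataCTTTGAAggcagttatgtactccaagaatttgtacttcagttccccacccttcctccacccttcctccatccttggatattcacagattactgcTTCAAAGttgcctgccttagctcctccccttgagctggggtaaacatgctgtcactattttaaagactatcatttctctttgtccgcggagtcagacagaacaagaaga
Selp: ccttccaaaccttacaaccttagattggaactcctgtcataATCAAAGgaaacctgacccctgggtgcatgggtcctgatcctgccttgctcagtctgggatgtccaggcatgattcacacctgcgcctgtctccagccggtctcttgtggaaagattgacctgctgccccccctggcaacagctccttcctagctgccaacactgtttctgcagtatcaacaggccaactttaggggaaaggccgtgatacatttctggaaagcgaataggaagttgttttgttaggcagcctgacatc
In Abcb1a the core occurs 2 times, on opposite strands, and the first begins 153 bases before the start. In Selp it occurs 1 time on the minus strand, 209 bases before the start.

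Many genes rose in liver endothelium with small fold changes in lung that did not pass. Nckap5, which encodes an Nck-associated protein, had 279.5, 178, 228 and 196 CPM in lung GOF libraries, against 226, 202, 144 and 185 CPM in lung controls. It had 16.5, 5.59, 7.84 and 9.82 CPM in liver GOF libraries, against 0, 0.448, 0.203 and 0.583 CPM in liver controls. In liver every GOF library was above every control, and both lung groups stood far above the liver. In reads, the 4 liver controls B, E, F and G held 0, 16, 7 and 14. The organ difference of -4.71 ± 0.52 was the only one that also passed without the pairing (edgeR adjusted p = 0.0022 with pairing), with a log2 fold change of 0.22 ± 0.27 in lung and 4.93 ± 0.43 in liver. Glb1l2, of the beta-galactosidase family, had a lung level of 46.4 CPM in GOF and 47.5 CPM in control and a liver level of 5.92 CPM in GOF and 0.677 CPM in control (difference -3.03 ± 0.44, edgeR adjusted p = 0.00907). Its liver GOF library E, at 0.358 CPM, was below liver controls B, F and G. The Glb1l2 difference passed in 8 of 11 alternatives that kept all libraries. For both genes the liver GOF level stayed below the lung level.

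Bmx, a Tec-family kinase gene of arterial endothelium, had 57.0, 37.9, 77.0 and 52.1 CPM in lung GOF libraries, against 54.1, 49.4, 90.8 and 56.0 CPM in lung controls. It had 276, 133, 193 and 176 CPM in liver GOF libraries, against 123, 61.7, 82.4 and 96.7 CPM in liver controls. The liver GOF libraries were all above the liver controls and the lung libraries overlapped. Its log2 fold change was -0.16 ± 0.11 in lung and 1.09 ± 0.11 in liver, a difference of -1.25 ± 0.15 (edgeR adjusted p = 0.00391). Bmx was the 1 called member of 27 in the arterial list. Of all genes, 0.336% were called with a response higher in liver. The receptor phosphatase gene Ptprg had log2 fold changes of 0.06 ± 0.11 in lung and 1.18 ± 0.11 in liver, an organ difference of -1.12 ± 0.15 (edgeR adjusted p = 0.00747).

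In the list of tip cell and VEGF genes, 3 of 26 tested were called, each with a response higher in liver, where 0.336% of all genes were. Apln and Cd34 are also in the lung capillary list, and Plaur in that of fibrinolysis. Apln, the ligand of the apelin receptor and a tip cell gene, had 203, 305, 175 and 427 CPM in lung GOF libraries, against 227, 191, 155 and 364 CPM in lung controls. It had 28.4, 39.2, 34.7 and 44.2 CPM in liver GOF libraries, against 12.6, 13.2, 14.2 and 14.6 CPM in liver controls. The liver groups did not overlap, and lung levels lay above those of liver in both genotypes. Apln had log2 fold changes of 0.23 ± 0.13 in lung and 1.41 ± 0.13 in liver, a difference of -1.18 ± 0.18 (edgeR adjusted p = 0.0142). Cd34, a sialomucin of capillary endothelium, had 823, 757, 535 and 814 CPM in lung GOF libraries, against 624, 623, 588 and 756 CPM in lung controls. It had 477, 219.7, 432 and 435 CPM in liver GOF libraries, against 161, 115, 197 and 214 CPM in liver controls. The lowest liver GOF library, E, stood just above the highest liver control, G. Cd34 had log2 fold changes of 0.16 ± 0.11 in lung and 1.17 ± 0.12 in liver, a difference of -1.003 ± 0.16 (edgeR adjusted p = 0.0189). Plaur, the urokinase receptor gene, had log2 fold changes of -0.12 ± 0.10 in lung and 0.88 ± 0.10 in liver, a difference of -0.997 ± 0.14 (adjusted p = 0.00747). The list of fibrinolysis and haemostasis genes had 3 called members of 25 (Plat, Plaur and Vwf), all with a response higher in liver, against 0.336% of all genes.

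**Figure D3:**
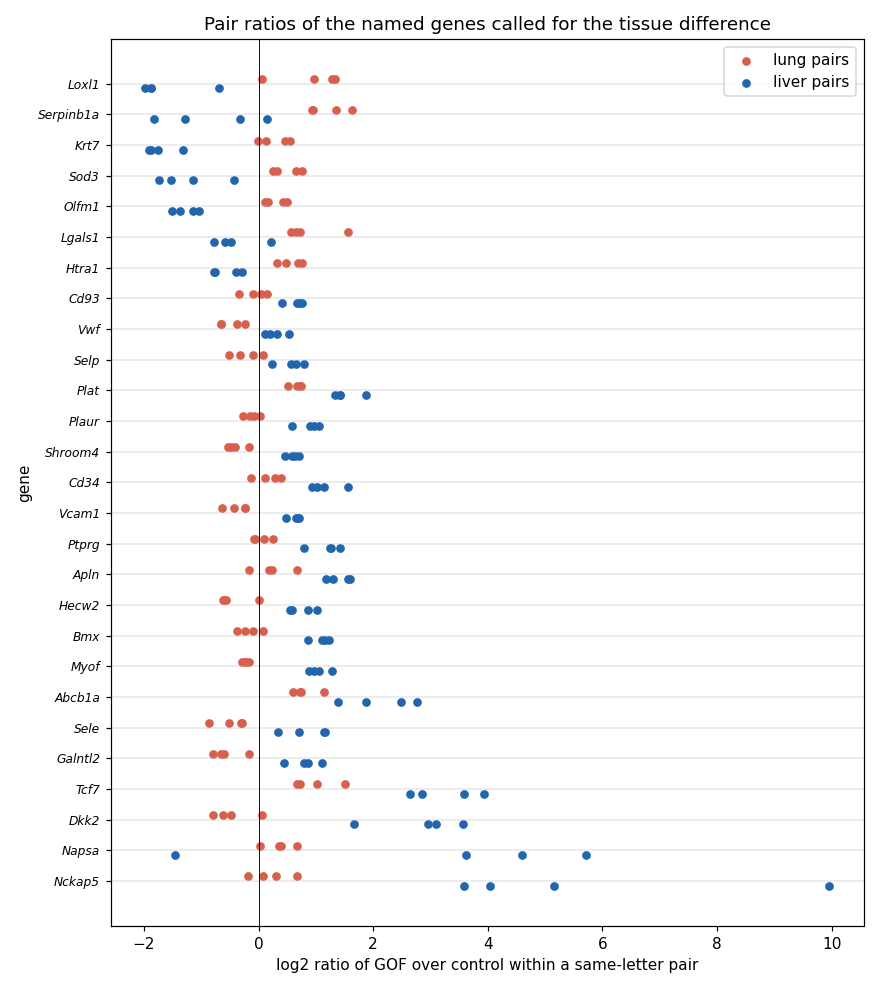
Log2 ratio of GOF over control (x axis) within each same-letter pair, for 27 named genes (y axis) called for the organ difference that had reads in all 4 groups. Red points are the 4 lung pairs and blue points the 4 liver pairs. At the top, from Loxl1 to Htra1, the lung pairs lie right of the liver pairs, and below they lie left of them, apart from 1 liver pair of Napsa.

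Of the adhesion molecules that capture leukocytes, Vcam1 and Sele had opposite signs in the organs by unadjusted p. Vcam1, the ligand of integrins on lymphocytes and monocytes, had 1792, 804, 1713 and 343 CPM in lung GOF libraries, against 2115, 943, 2316 and 536 CPM in lung controls. It had 1087, 3042, 2177 and 1741 CPM in liver GOF libraries, against 695, 1877, 1333 and 1256 CPM in liver controls. Levels overlapped between genotypes in both organs, and the spread followed the letters: lung libraries D and F were low in both genotypes. Within pairs, GOF was lower in 4 of 4 lung pairs and higher in 4 of 4 liver pairs. Vcam1 rose in liver by a log2 fold change of 0.63 ± 0.09 (edgeR adjusted p = 0.00276), the lung change was -0.39 ± 0.09 (adjusted p = 0.194), and the difference was -1.02 ± 0.12 (adjusted p = 0.00391).

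Sele, which encodes E-selectin, had 415, 131, 593 and 121 CPM in lung GOF libraries, against 510.1, 240.4, 729 and 173 CPM in lung controls. It had 986, 3286, 2859 and 1810.3 CPM in liver GOF libraries, against 446, 2023, 1279 and 1439 CPM in liver controls. Here too the genotypes overlapped and the pairs separated, with GOF lower in all 4 lung pairs and higher in all 4 liver pairs. The log2 fold change was -0.49 ± 0.14 in lung (adjusted p = 0.345) and 0.83 ± 0.14 in liver (adjusted p = 0.00748), a difference of -1.33 ± 0.19 (edgeR adjusted p = 0.00907). Selp, which encodes P-selectin, stored with von Willebrand factor in endothelial granules, had log2 fold changes of -0.21 ± 0.11 in lung and 0.56 ± 0.11 in liver. Its difference of -0.78 ± 0.15 was close to the threshold (adjusted p = 0.0471) and was lost without liver pair B, E or F, or lung pair D or F. Of 24 genes tested in the list of leukocyte adhesion and cytokine genes, these 3 were called. Over all genes, 0.336% were called with a response higher in liver. A positive organ difference was found in 6 of 24, against 8558 of 17536 over all genes. The list's median difference was -0.11, against -0.01 over all genes.

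Vwf, which encodes von Willebrand factor, had 5889.7, 7091, 9947 and 6004 CPM in lung GOF libraries, against 9275, 8369, 12879.6 and 9448 CPM in lung controls. It had 10194, 8479.7, 7859.9 and 6288 CPM in liver GOF libraries, against 8834, 5855, 6274 and 5803 CPM in liver controls. GOF was lower than control in 4 of 4 lung pairs and higher in 4 of 4 liver pairs, although neither organ alone passed (lung -0.48 ± 0.09, adjusted p = 0.126; liver 0.295 ± 0.09, adjusted p = 0.167). The organ difference was -0.78 ± 0.13 (edgeR adjusted p = 0.0207, lost without lung pair F). Vwf, Selp and Vcam1 were the 3 called members of 14 in the venous list, all with a response higher in liver. Such calls made up 0.336% of all genes. The list's median log2 fold changes were -0.35 in lung and -0.30 in liver. Cd93, a lectin-like receptor of endothelium, had a difference of -0.696 ± 0.13 (adjusted p = 0.0403), lost without any of liver pairs B, E and F or lung pairs B, D and F. Vwf and Cd93 were the 2 called members of 25 in the pan-endothelial list, against 0.336% of all genes called with a response higher in liver.

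Myof, which encodes the membrane-repair protein myoferlin, also had opposite signs by unadjusted p. It had 329.9, 249.8, 415 and 237 CPM in lung GOF libraries, against 404, 291, 466 and 281 CPM in lung controls. It had 246, 158, 228 and 215 CPM in liver GOF libraries, against 125, 64.8, 109.9 and 118 CPM in liver controls. The liver groups stood apart and the lung groups overlapped, with GOF below control in each lung pair. Myof had an organ difference of -1.28 ± 0.13 (edgeR adjusted p = 0.00125), from -0.23 ± 0.09 in lung and 1.05 ± 0.09 in liver. Galntl2, of the family that starts O-linked glycans, had log2 fold changes of -0.56 ± 0.12 in lung and 0.81 ± 0.13 in liver. The actin-binding Shroom4 had log2 fold changes of -0.40 ± 0.10 in lung and 0.60 ± 0.10 in liver, and the ubiquitin ligase gene Hecw2 of -0.45 ± 0.12 in lung and 0.75 ± 0.12 in liver. Their organ differences had adjusted p of 0.00607 for Galntl2, 0.00747 for Shroom4 and 0.00845 for Hecw2, and all 3 rose in liver (adjusted p at most 0.00654).

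Other called genes with a rise in liver were described after their values were seen. Mfsd7c, which encodes a membrane transporter of the major facilitator family, averaged 27.1 ± 4.14 CPM in lung GOF and 25.2 ± 6.68 CPM in lung control, and 11.4 ± 4.03 CPM in liver GOF and 2.57 ± 1.62 CPM in liver control (SD, n = 4 each; difference -2.13 ± 0.35, edgeR adjusted p = 0.0189). The call of Mfsd7c was kept in 8 of the 8 fits with a pair left out, and in 8 of 11 alternatives that kept all libraries. With a pair left out, that of Map4k2 was kept in 7 (lost without liver pair F), that of Itgb4 in 5 (lost without liver pair B or E or lung pair F) and that of Igf2r in 3 (lost without liver pair B or F or lung pair B, D or F). Igf2r, the clearance receptor of insulin-like growth factor 2, had log2 fold changes of -0.12 ± 0.12 in lung and 0.81 ± 0.12 in liver. The integrin subunit gene Itgb4 had log2 fold changes of -0.19 ± 0.12 in lung and 0.798 ± 0.12 in liver, and the kinase gene Map4k2 of 0.00 ± 0.09 in lung and 0.78 ± 0.09 in liver. These 3 rose in liver and did not pass in lung.

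Of the 30 genes of opposite sign, 26 had reads in all 4 groups, with log2 fold changes between -0.78 and 1.21 in lung and between -1.71 and 1.05 in liver. Fam107a, known as an actin-associated stress-response gene, averaged 180.3 ± 55.6 CPM in lung GOF and 315 ± 112 CPM in lung control, and 14.6 ± 2.43 CPM in liver GOF and 8.16 ± 3.11 CPM in liver control. Its difference was -1.67 ± 0.32 (edgeR adjusted p = 0.0403), with GOF lower in 4 of 4 lung pairs and higher in 4 of 4 liver pairs, and it passed in neither organ alone. Its call was kept in 3 of the 8 fits with a pair left out (lost without liver pair B or E or lung pair B, D or F). Mical2, which encodes an enzyme that oxidises actin, had the same order within all pairs and a difference of -0.79 ± 0.13 (edgeR adjusted p = 0.02, lost without lung pair F).

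Of the 27 genes with a response higher in lung, 17 fell in liver and the other 10 passed in neither organ. Olfm1, which encodes a secreted olfactomedin glycoprotein, had 38.1, 34.4, 55.0 and 38.9 CPM in lung GOF libraries, against 26.9, 32.0, 48.9 and 29.1 CPM in lung controls. It had 95.2, 123, 100.3 and 52.5 CPM in liver GOF libraries, against 246, 251, 222 and 150.4 CPM in liver controls. Every liver GOF library was below every liver control, while the lung groups overlapped with GOF above control in each pair. Olfm1 fell in liver (log2 fold change -1.27 ± 0.11, edgeR adjusted p = 8.59e-05), the lung change was 0.299 ± 0.11, and the difference was 1.56 ± 0.16 (adjusted p = 0.00125).

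Of the 30 genes in the basement membrane and matrix list, 0 were called for the organ difference by edgeR and 3 by DESeq2, 8 had an unadjusted p under 0.05, and 18 had a positive difference. Over all 17536 genes tested, DESeq2 called 388, 1877 had an unadjusted p under 0.05, and 8558 had a positive difference. Some secreted proteins outside that list were called. Loxl1, a lysyl oxidase that cross-links elastin, had 102, 64.4, 64.8 and 64.6 CPM in lung GOF libraries, against 41.9, 61.6, 25.6 and 33.0 CPM in lung controls. It had 2.98, 4.55, 6.97 and 1.77 CPM in liver GOF libraries, against 11.8, 7.31, 25.8 and 6.50 CPM in liver controls. Lung GOF libraries were above all lung controls, with library B the highest, and in liver the groups overlapped, since GOF library F was above control library G. Loxl1 had a log2 fold change of 0.92 ± 0.24 in lung (adjusted p = 0.284) and fell in liver (log2 fold change -1.61 ± 0.25, adjusted p = 0.00589), a difference of 2.52 ± 0.35 (edgeR adjusted p = 0.00747). Sod3, the extracellular superoxide dismutase, had log2 fold changes of 0.497 ± 0.17 in lung and -1.21 ± 0.18 in liver (difference adjusted p = 0.00907). Htra1, a secreted serine protease, had log2 fold changes of 0.57 ± 0.11 in lung and -0.55 ± 0.12 in liver (difference adjusted p = 0.00907). Col6a2, a chain of collagen VI, had log2 fold changes of 0.88 ± 0.22 in lung and -0.97 ± 0.24 in liver (difference adjusted p = 0.0274, lost without lung pair B or F). Both Sod3 and Htra1 fell in liver (adjusted p = 0.00467 and 0.0308), and Col6a2 did not pass there (adjusted p = 0.0661).

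Serpinb1a, an inhibitor of neutrophil proteases, had 240.5, 149, 194 and 87.5 CPM in lung GOF libraries, against 77.9, 58.4, 101 and 45.6 CPM in lung controls. It had 2.72, 2.90, 7.17 and 3.72 CPM in liver GOF libraries, against 9.64, 2.63, 9.03 and 9.12 CPM in liver controls. Within pairs GOF was higher in 4 of 4 in lung and lower in 3 of 4 in liver. Serpinb1a had an organ difference of 2.06 ± 0.34 (edgeR adjusted p = 0.02), from 1.21 ± 0.23 in lung and -0.85 ± 0.26 in liver, and passed in neither organ alone. Reads of Serpinb1a may be shared with its close paralogs. Lgals1, which encodes galectin-1, had a difference of 1.29 ± 0.25 (adjusted p = 0.0403) that was kept in 2 of the 8 fits with a pair left out.

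Krt7 encodes an epithelial keratin that marks bile duct cells in liver. It had 156, 262, 169.7 and 266 CPM in lung GOF libraries, against 143, 263, 116 and 192 CPM in lung controls. It had 2.11, 0.967, 3.96 and 1.605 CPM in liver GOF libraries, against 8.05, 3.31, 9.90 and 5.92 CPM in liver controls. In lung the groups overlapped, and in liver all GOF libraries but F, at 3.96 CPM, were below the lowest control, E, at 3.31 CPM. Krt7 fell in liver (log2 fold change -1.71 ± 0.15, edgeR adjusted p = 8.59e-05), the lung change was 0.28 ± 0.12, and the difference was 1.99 ± 0.19 (adjusted p = 0.00125). The difference did not pass with limma voom (adjusted p = 0.122). Of 9 bile duct markers tested, Krt7 among them, 9 had a positive organ difference, with median log2 fold changes of 0.26 in lung and -0.93 in liver, and 2 fell in liver. Over all 17536 genes tested, 8558 had a positive organ difference and 100 fell in liver. The summed level of the 10 bile duct markers found was between 487 and 774 CPM in lung GOF and between 405 and 750 CPM in lung control, and between 19.4 and 83.8 CPM in liver GOF and between 27.5 and 180 CPM in liver control. No tested member had 0 reads in a whole group.

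Transcripts of other cells were summed by marker list and compared between the organs in the same way. Of 18 summed lists of other cells or of sample quality, 14 had a positive organ difference and 4 a negative one. The bile duct list had a mean pair log2 ratio of 0.15 in lung and -0.76 in liver, a difference of 0.91 (exact two-sided permutation test over 70 arrangements, p = 0.0286, the smallest 4 against 4 allows; Benjamini-Hochberg adjusted p = 0.257). Summed levels of this list were higher in lung than in liver, and which cells gave its transcripts in lung was not tested. With 4 pairs against 4 and 18 lists, an adjusted p under 0.05 was hardly within reach, so the adjusted values say nothing about the lists. The fibroblast and stellate list had a mean pair ratio of 0.44 in lung and -0.35 in liver (exact permutation p = 0.0571, adjusted p = 0.257), with summed levels between 1729 and 4252 CPM in lung GOF and between 1289 and 2172 CPM in lung control, and between 436 and 1057 CPM in liver GOF and between 687 and 1677 CPM in liver control. Its 18 members were all detected in every group. The mesothelial list had medians of 0.21 in lung and -1.25 in liver over 10 genes, 9 of them with a positive difference, against 8558 of all 17536 genes tested. Its summed level was between 164 and 396 CPM in lung GOF, between 210.0 and 380.3 CPM in lung control, between 289.6 and 420.4 CPM in liver GOF and between 430.4 and 569 CPM in liver control. The part of these cells in the values of Krt7, Loxl1, Sod3, Htra1, Col6a2 and Lgals1 was not tested.

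**Figure D4:**
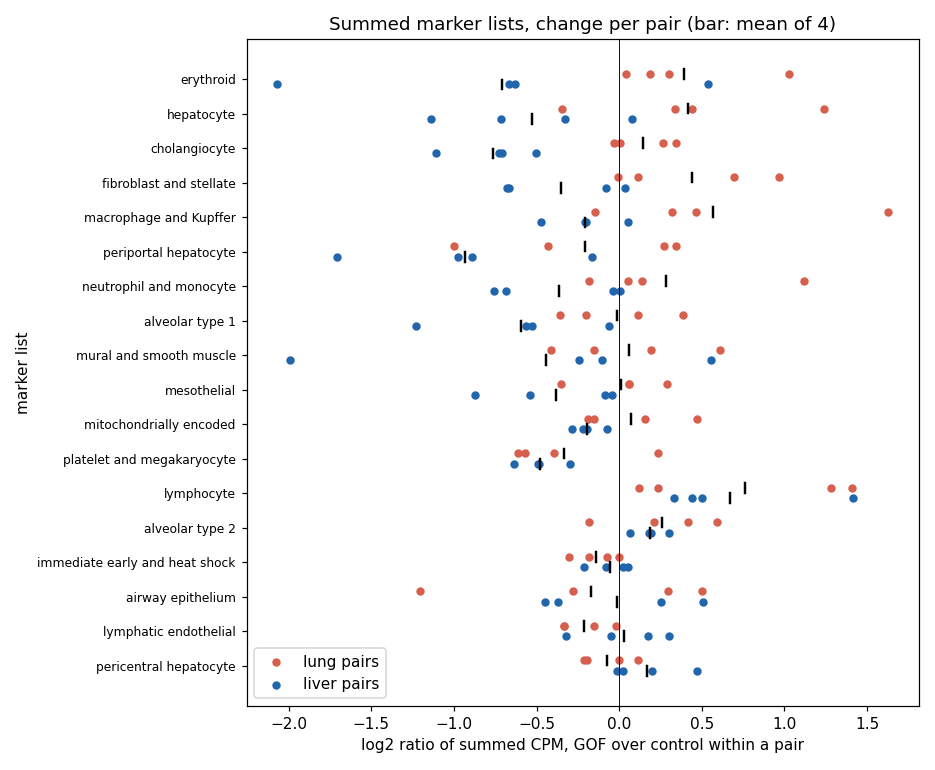
Log2 ratio of GOF over control (x axis) of the summed CPM of each marker list (y axis), in the 4 lung pairs (red) and 4 liver pairs (blue), with a black bar at each mean. Lists are ordered by the organ difference, and in 14 of 18 the lung mean lies right of the liver mean.

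Of the 86 genes, 15 had a group with 0 reads, and their fitted fold changes depend on the prior count. In liver GOF, 0 reads were counted for Tmeff1, Begain and F13a1, against 41, 67 and 92 reads over the 4 liver controls, which is at least 13.4-fold, 21.9-fold and 30.04-fold lower. Liver controls B, E, F and G held 0, 24, 0 and 17 reads of Tmeff1. They held 21, 0, 29 and 17 of Begain, and 0, 61, 16 and 15 of F13a1. Pairs with 0 reads in both genotypes showed no fall in these genes. The lung levels of these genes were higher than those of liver in both genotypes. Tmeff1, a transmembrane protein with EGF-like and follistatin domains, had 33.8, 48.2, 40.1 and 36.0 CPM in lung GOF libraries, against 31.2, 48.0, 39.6 and 38.1 CPM in lung controls, with the genotypes overlapping. F13a1, the A subunit of clotting factor XIII, known in macrophages and platelets, had 3.97, 3.78, 37.1 and 8.29 CPM in lung GOF libraries, against 3.02, 4.70, 21.6 and 8.501 CPM in lung controls, with library E highest in both genotypes (call lost without lung pair E). The summed platelet list was likewise highest in lung pair E, at 859 CPM in GOF and 1277 CPM in control.

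The 3 genes placed as higher in lung GOF only (Cfi, Haao and Nr1h4) are known as hepatocyte transcripts, and none passed in lung alone. The call of Nr1h4 was lost without liver pair B or F or lung pair D. Cfi, complement factor I, had 1.06, 0.215, 0.0387 and 1.40 CPM in lung GOF libraries, against 0, 0, 0 and 0 CPM in lung controls. It had 16.6, 4.44, 8.48 and 4.84 CPM in liver GOF libraries, against 23.5, 7.79, 14.5 and 8.71 CPM in liver controls. Against the floor the lung level was at least 26.8-fold higher. The Cfi difference did not pass with limma voom (adjusted p = 0.102). Haao, an enzyme of tryptophan breakdown, had 101 reads over lung GOF and 0 in lung control (at least 31.8-fold, call lost without liver pair B). Ttr, the carrier transthyretin, had 63 reads in lung GOF, all in library B, and 0 in lung control (at least 19.8-fold), and Ambp had 33 reads, all in library B (at least 10.4-fold). Both calls were lost without lung pair B, and that of Ambp also without liver pair B. The hepatocyte list of 20 genes had summed levels between 71.9 and 136 CPM in lung GOF and between 53.003 and 154 CPM in lung control, and between 906 and 2084 CPM in liver GOF and between 968 and 4593 CPM in liver control. No read was counted for 4 members in lung GOF (Fgb, Cyp3a11, Serpina3k and Serpina1a), for 6 in lung control (Ambp, Apoc3, Cyp3a11, Ttr, Mup3 and Serpina1a), and for 0 members in liver. The part of such transcripts in these calls was not tested. Napsa, an aspartic protease of alveolar type 2 cells, was called with a response higher in liver, although its level was far higher in lung. It averaged 104 CPM in lung GOF and 84.8 CPM in lung control. The liver libraries held 0.384, 0.860, 0 and 0.187 CPM in GOF, against 0, 0, 0.0289 and 0 CPM in control. The call of Napsa was lost in 4 of the 8 fits with a pair left out.

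Plvap, the diaphragm protein of fenestrae, did not pass for the organ difference. It had 919, 1914, 1496 and 1573 CPM in lung GOF libraries, against 1612, 2069, 2596 and 2025 CPM in lung controls. It had 1692, 1209, 1768 and 1169 CPM in liver GOF libraries, against 2992, 1837, 2448 and 2003 CPM in liver controls. GOF was lower within every pair in both organs. Plvap fell in liver (log2 fold change -0.67 ± 0.11, edgeR adjusted p = 0.00985), the lung change was -0.52 ± 0.11 (adjusted p = 0.177), and the difference was 0.15 ± 0.16 (95% interval -0.202 to 0.496, adjusted p = 0.826). Of 12 genes tested in the list of fenestral diaphragm and caveolar genes, edgeR called 0 for the organ difference, with 6 at an unadjusted p under 0.05 and 1 called by DESeq2, and 2 fell in liver. Over all 17536 genes tested, 1877 had an unadjusted p under 0.05, DESeq2 called 388, and 100 fell in liver. Pecam1, which encodes CD31, had a difference of -0.13 ± 0.11 (95% interval -0.37 to 0.11), and Cdh5, which encodes VE-cadherin, of -0.18 ± 0.10 (95% interval -0.40 to 0.03).

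The Wnt ligands of liver central vein endothelium gave wide intervals. Wnt2 averaged 5.85 ± 3.84 CPM in lung GOF and 7.996 ± 4.43 CPM in lung control, and 237 ± 67.8 CPM in liver GOF and 451 ± 92.8 CPM in liver control (SD, n = 4 each). Its organ difference was 0.48 ± 0.37 (95% interval -0.32 to 1.29, edgeR adjusted p = 0.705). Wnt9b averaged 1.86 ± 1.58 CPM in lung GOF and 4.08 ± 1.07 CPM in lung control, and 435 ± 152 CPM in liver GOF and 864 ± 229 CPM in liver control. Its difference was -0.297 ± 0.52 (95% interval -1.41 to 0.82, adjusted p = 0.916), and its sign turned without lung pair E or lung pair F.

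Of the other response lists, those of liver sinusoidal endothelium (27 genes tested), fatty acid handling (19), TGF-beta and BMP signalling (33), basement membrane and matrix (30), cell cycle (32), interferon response (31) and p53 targets (20) held 0 genes called for the organ difference by edgeR. Over these 7 lists, with 192 entries, 44 had an unadjusted p under 0.05 and 14 were called by DESeq2. Over all 17536 genes tested, these counts were 1877 and 388, so the lists without an edgeR call cannot be read as unresponsive. Among the cell cycle genes, 29 of 32 had a positive log2 fold change in lung and 29 of 32 in liver, with medians of 0.89 and 0.75, against medians of 0.00 over all genes tested in both organs. The summed lymphocyte markers were higher in GOF in 4 of 4 lung pairs and 4 of 4 liver pairs, with mean pair log2 ratios of 0.76 in lung and 0.67 in liver, at 70.9 to 85.1 CPM in lung GOF, against 32.0 to 65.2 CPM in lung control, and 22.5 to 74.3 CPM in liver GOF, against 15.96 to 40.6 CPM in liver control. The 14 lymphocyte genes tested had median log2 fold changes of 0.83 in lung and 0.94 in liver, and Cd3e had 0 reads in lung control. The 14 neutrophil and monocyte genes tested had medians of 0.80 in lung and 1.17 in liver. The sum of the 15 list members found had mean pair ratios of 0.28 in lung and -0.37 in liver. Retnlg, Ngp and Camp had 0 reads in liver control. The summed levels of that list were 739 to 2165 CPM in lung GOF, against 672 to 2372 CPM in lung control, and 87.8 to 170 CPM in liver GOF, against 101 to 183 CPM in liver control. The part of these cells in the cell cycle values was not tested. Interferon genes had a median of 0.42 in lung and 0.22 in liver, with 26 and 23 of 31 positive. Of all 17536 genes tested, 8533 were positive in lung and 8885 in liver. The lung capillary list had 2 called members of 29, Apln and Cd34, both with a response higher in liver, where 0.336% of all genes were. The levels of both were higher in lung. The list of liver angiocrine and central vein genes had 1 called member of 17, Lgals1, with a response higher in lung, where 0.154% of all genes were. The level of Lgals1 was higher in liver, at 48.9 CPM in lung GOF and 25.1 CPM in lung control, against 134 CPM in liver GOF and 181 CPM in liver control.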

How the data were processed

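Counts of reads per gene were deposited by the authors for each library without any scaling, per the file headers, and these counts were tested. Their deposited CPM columns (16) were not used. The submitters' processing notes name build mm9, HTSeq (0.6.1), DESeq2, TopHat2 (2.0.11), SAMtools (0.1.19) and Bowtie2 (2.2.1). No annotation or strand setting is named there, so overlapping and antisense genes cannot be told apart. Their comparison tables hold log2 fold changes, which the authors deposited per tissue and which were not used for the results.

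Both tissues' tables were joined by gene row (37991 rows), and the total line was left out. edgeR 4.0.16 (R 4.3.3) was used with TMM scaling, filterByExpr by group (minimum count 10, minimum total 15), 8 organ-and-letter blocks and a GOF effect per organ, with 6 residual degrees of freedom. Same-letter libraries of an organ deviated together from their group means, at correlations of 0.119, 0.188, 0.180 and 0.110 in lung (B, E, F and D) and 0.290, 0.238, 0.198 and 0.171 in liver (B, E, F and G). The labels do not say what a letter stands for or whether a letter marks 1 mouse in both organs. They describe 4 biological samples per condition. No replicates of a group agreed within sampling noise.

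Fold changes used a prior count of 0.125, and pair ratios one of 0.5. For a group with 0 reads, a bound was computed with 3 reads in their place, and such bounds reflect counting error alone. Genes named were, among those called whose highest group mean reached 50 reads, the 12 smallest adjusted p in each direction, up to 6 of opposite sign, up to 4 called members of each list, and 10 genes always given; a gene that met this rule is not reported here. Glb1l2, Olfml2a, Dusp2, Lrig1, Lama1, Col6a2, Amigo2, Mfsd7c, Igf2r, Itgb4, Map4k2, Fam107a, Mical2 and the genes in the closing section were chosen after their values were seen. The question, the gene lists and the rules were chosen with earlier results of these data known. The method was tested on simulated data. DESeq2 1.42.0 and limma 3.58.1 served as alternatives.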

Additional observations from a re-analysis of the deposited data

Results flagged for a closer look

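The organ difference itself is listed because 86 genes differed between lung and liver in their response to the same transgene by a test of that difference. The other values were listed because 1 library stood far from the other 3 of its group (Dixon's ratio at 95%). Of 232 groups tested, 15 were listed, where chance gives about 1 in 20.

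Loxl1 stood apart in lung GOF library B (102 CPM), F13a1 in lung GOF library E (37.1 CPM) and Ttr in lung GOF library B (2.02 CPM). Bmx stood apart in lung control library E (90.8 CPM). In liver control, Begain did so in library E (0 CPM), Serpinb1a in library E (2.63 CPM), Ptprg in library G (187 CPM) and Vwf in library B (8830 CPM).

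Of the summed lists, fibroblast and stellate markers were apart in lung GOF library B (4250 CPM) and liver control library F (1680 CPM), and mural markers in liver control library B (230 CPM). Bile duct markers were apart in liver GOF library B (83.8 CPM) and liver control library B (180 CPM). Platelet markers were apart in lung GOF library E (859 CPM) and lung control library E (1280 CPM), the same pair in which F13a1 was highest.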

How the results depend on the processing

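The count for the organ difference was 86 with the letter as a block and 1 without the replicate block. It was 229 with no filter on low counts, and 388 with DESeq2 (118 with a response higher in lung and 270 with a response higher in liver, 83 of the 86 genes among them). With limma voom it was 125, and 155 with a correlation between organs (0.048), each with 57 of the 86 genes among them. The count was 54 to 184 with 1 pair left out. For liver alone it was 256, and 27 without the block, 442 with no filter, 706 with DESeq2, 461 with limma voom, 451 with the correlation between organs, and 156 to 322 with 1 pair left out. For lung alone it was 1, and 0 without the block, 4 with DESeq2 size factors, 10 with upper-quartile scaling, 57 with no filter, 198 with DESeq2, 33 with limma voom, 8 with robust edgeR, 34 with the correlation between organs, and 0 to 11 with 1 pair left out. The 30 genes of opposite sign became 0 with adjusted p within each organ. Of the results for single genes and lists under each alternative, 899 kept direction and side of the threshold, 92 lost the call and 2 gained it. The sign turned in 3: Wnt9b without lung pair E and without lung pair F (0.0893 and 0.08728, with a range of -0.8022 to 0.0893 over the pairs left out), and the lymphocyte list when the median of its members replaced their sum (-0.5614). The cause was not tested. Scaling alternatives moved the median log2 change of all genes by less than 0.1. Genes near 0 reads in 1 organ are limited by depth.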

Other observations

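Further genes with a larger rise in liver were chosen here after their values were seen. Nfatc2, a transcription factor gene, had log2 fold changes of 0.24 ± 0.199 in lung and 1.88 ± 0.21 in liver (SE), with organ difference -1.64 ± 0.28 (edgeR adjusted p = 0.0242). Of its relatives, Nfatc1 had a difference of -0.85 ± 0.16 (adjusted p = 0.0372) and Nfat5 of -0.997 ± 0.18 (adjusted p = 0.0311). These 3 rose in liver (adjusted p = 0.000421, 0.00836 and 0.00927). Nfatc2 kept its call in 8 of the 8 fits with a pair left out, and Nfatc1 and Nfat5 each in 3. Nfatc4 and Nfatc3 did not pass for the organ difference, with values of -1.27 for Nfatc4 (adjusted p = 0.255) and -0.15 for Nfatc3 (adjusted p = 0.817). Ch25h, which makes 25-hydroxycholesterol, had log2 fold changes of -0.27 ± 0.12 in lung and 0.79 ± 0.12 in liver, with a difference of -1.06 ± 0.17 (adjusted p = 0.018).

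Among genes that fell in liver, Dpep1, a membrane dipeptidase of lung vessels, averaged 104 ± 35.2 CPM in lung GOF and 80.0 ± 35.4 CPM in lung control, and 0.135 ± 0.161 CPM in liver GOF and 1.45 ± 1.63 CPM in liver control (SD, n = 4 each; difference 3.86 ± 0.69, edgeR adjusted p = 0.0311). Inmt, a methyltransferase gene, averaged 529 ± 322 CPM in lung GOF and 485 ± 288 CPM in lung control, and 4.82 ± 3.43 CPM in liver GOF and 12.01 ± 4.78 CPM in liver control (difference 1.62 ± 0.301, adjusted p = 0.0346). The call of Dpep1 was lost without liver pair B or lung pair B, and that of Inmt without liver pair E or G or lung pair B or D.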
